A study of Drosophila melanogaster with 16 samples.

Results

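The 15 features described here were higher than wild-type in RasV12scrib- tumours and near or below wild-type level in the other 3 tumour genotypes of the series, out of 11196 features on a custom 2-colour array. They were chosen by their measured log2 ratios, after the median of each array had been subtracted. A member had a RasV12scrib- mean of 1 or more with all 4 of its arrays above 0, and a mean under 0.3 in each of RafGOFscrib-, RasV12baz- and RasV12cdc42-. These values are therefore a description of the choice, and no p-value for RasV12scrib- against wild-type or against another genotype is given for a member.

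All 4 genotypes are tumours induced in clones of cells of the eye-antennal discs in Drosophila melanogaster larvae. These imaginal discs are the epithelial sacs from which the adult eye and antenna form. The RasV12scrib- tumours carried activated Ras (RasV12) and had lost scrib, RasV12baz- and RasV12cdc42- tumours carried the same Ras with loss of baz or cdc42, and RafGOFscrib- tumours carried a gain-of-function Raf with loss of scrib. Tumours were taken at day 10 and the wild-type discs that served as reference at day 5 to 6, with all larvae kept at 25 °C, so tumour and age cannot be told apart in any ratio to wild-type. Each RNA came from about 30 to 40 pooled discs. The share of mutant cells in them is not given, and a change in the number of cells of a kind cannot be told apart from a change in RNA per cell. The transgene drivers and the alleles are not given in the sources used here.

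As background, Ras relays growth factor signals to the kinase Raf, and from there to the MAP kinase that alters transcription. Scribble marks the basolateral side of epithelial cells, while Bazooka (the fly Par-3) and Cdc42 act in the apical Par complex. In discs, activated Ras together with loss of such a polarity protein is known to give overgrown, invasive tumours in which JNK signalling is active. RasV12scrib- and RafGOFscrib- share the polarity gene that was lost, and RasV12scrib-, RasV12baz- and RasV12cdc42- share the oncogene.

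The table of log2 ratios has 4 arrays a genotype and no missing value. The values of RafGOFscrib- replicates 1 and 2 were identical for 95.1% of features (no other 2 arrays shared more than 0.143%), and their mean was counted as 1 replicate (n = 3). Within RasV12scrib-, replicates 1 and 2 resembled each other (r = 0.77 across features, which are not independent) and so did replicates 3 and 4 (r = 0.81), while r across these pairs lay between 0.45 and 0.51. Array medians before centring ran from -0.12 to 0.48. A positive value is read as higher in the tumour, because tumour RNA is listed as channel 1 throughout. That direction is likely and is not stated, and with the opposite direction every "higher" below would be "lower". Nothing in the labels beyond the word biological says how separate the replicates were, so the errors measure the spread between these arrays.

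Of the 15 members 1 could be named through the gene table of the Release 6 assembly. It is CG5681 (FBgn0032658), a protein-coding gene of arm 2L that lies between CG5674 and Prosbeta5R2 in that table, and its function is not annotated there. The other 14 are given by their FlyBase identifier alone, and no role is stated for them. Of 270 genes in pathway lists 3 were matched to a feature by name and of 88 cell type markers 2 were matched, and none of these was a member. The fat body marker among them, Lsp2, a larval serum protein, was low in RasV12scrib- (-4.28, -4.75, -4.39 and -2.48 on replicates 1 to 4). Elsewhere it was uneven, with -3.51, -0.03 and 0.09 in RafGOFscrib-, 2.13, -0.03, 0.01 and -3.16 in RasV12baz-, and -0.44 to -2.69 in RasV12cdc42-. Any link of this spread to the members was not tested. The haemocyte transcription factor gcm2 lay between -0.15 and 0.48 in RasV12scrib- and between -0.67 and 0.46 elsewhere. The labelled tissue could not be checked further, since no disc marker was matched.

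Most features with a RasV12scrib- mean of 1 or more had a mean of 0.3 or more in at least 1 other genotype. A RasV12scrib- mean of 1 or more was found for 497 features, and 483 of these were above 0 on all 4 arrays. Of the 483, 241 had a mean of 0.3 or more in all 3 other genotypes (49.9%), 150 in 2 of them, 77 in 1 and 15 in none (3.11%). The mean was 0.3 or more for 356 of the 483 in RafGOFscrib-, for 361 in RasV12baz- and for 383 in RasV12cdc42-. The share of all features at 0.3 or more in these genotypes is not given here. Every ratio also sets day 10 tumours against wild-type discs of day 5 to 6. How far the genotypes share changes is therefore not read from these counts. With the same rule applied to another genotype in place of RasV12scrib-, 19 features were found for RafGOFscrib-, 11 for RasV12baz- and 6 for RasV12cdc42-. With the sign turned, 25 features were low in RasV12scrib- alone, 5 in RafGOFscrib- alone, 5 in RasV12baz- alone and 2 in RasV12cdc42- alone. A further 4 features met the limits on means but had RasV12scrib- arrays on both sides of 0. FBgn0016650 is such a case, with 2.53, -0.25, 4.82 and -0.09 on replicates 1 to 4 (mean 1.75 ± 2.41, SD).

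**Figure D1:**
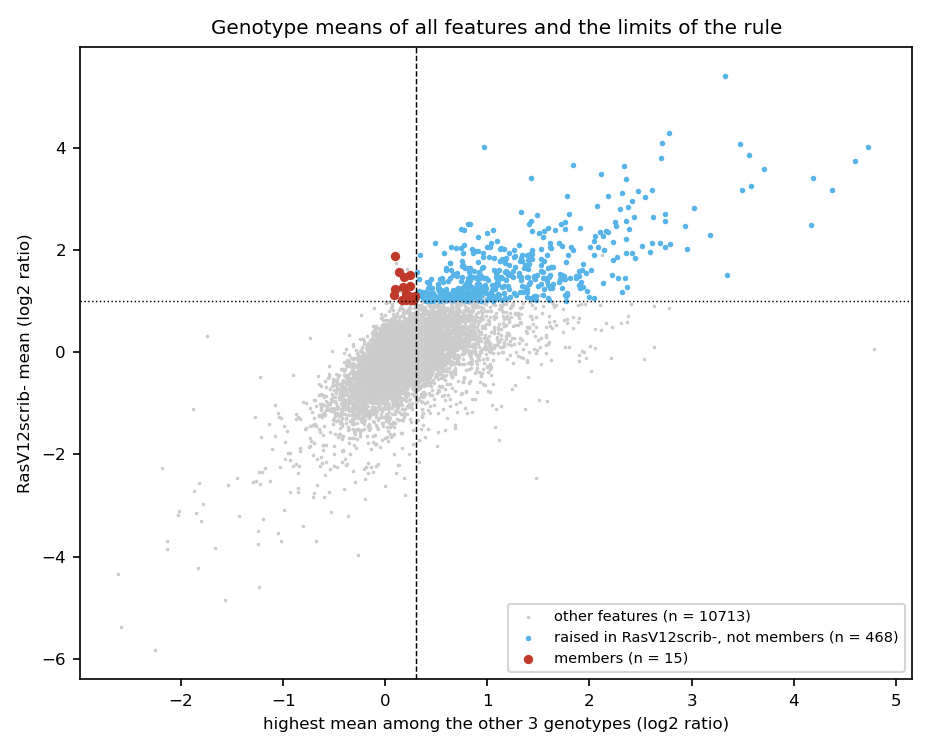
Mean log2 ratio in RasV12scrib- tumours (y axis) against the highest mean among the other 3 genotypes (x axis) for every feature, with the lower limit of 1 (dotted) and the upper limit of 0.3 (dashed). The 15 members (red) sit at the left end of the 483 features that were above 0 on all 4 RasV12scrib- arrays with a mean of 1 or more, whose other 468 points (blue) run to the right of the dashed line.

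The member with the highest RasV12scrib- mean was FBgn0032900, at 2.02, 2.08, 1.93 and 1.5 on replicates 1 to 4 (mean 1.88 ± 0.26, SD, n = 4, or 3.69-fold). On the other 11 replicates it lay between -0.77 and 0.47, on both sides of 0 in each genotype. Its lowest RasV12scrib- array was thus 1.03 above the highest array of any other genotype, the widest such gap among the members. FBgn0020640 followed the same pattern with 1.55, 0.96, 1.72 and 1.67 (1.47 ± 0.35) against -0.43 to 0.43 elsewhere, a gap of 0.53. FBgn0037975 had 1.48, 0.99, 1.12 and 1.60 (1.30 ± 0.29) against -0.55 to 0.43, a gap of 0.56. For these 3 members all arrays of RasV12scrib- stood well apart from those of the other tumours.

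Narrower gaps separated 6 more members. FBgn0001225 had the second highest mean, with 1.66, 1.32, 2.08 and 1.23 (1.57 ± 0.38), but it spread widely elsewhere, from -1.44 on RasV12cdc42- replicate 3 to 1.04 on RafGOFscrib- replicate 3. In RafGOFscrib- it read -1.35 on the averaged replicates 1 and 2, 1.04 on replicate 3 and 0.04 on replicate 4 (-0.09 ± 1.20, n = 3), so its low mean there is an average of opposite values. In RasV12cdc42- it was 0.73, 0.06, -1.44 and -0.55 (-0.30 ± 0.92). FBgn0034397 held the highest single value of any member, 2.93 on replicate 4, after 0.70, 0.87 and 1.52 on replicates 1 to 3 (1.5 ± 1.01), and its other arrays ended at 0.60. FBgn0030590 had 2.14, 1.35, 0.68 and 0.81 (1.25 ± 0.66), FBgn0039818 had 1.73, 1.19, 0.90 and 0.68 (1.12 ± 0.45), and FBgn0038038 had 0.79, 0.50, 1.39 and 1.40 (1.02 ± 0.45). Each of these lay above its arrays from other genotypes by no more than 0.24. The ninth member without overlap, FBgn0033395, differed from all the others and is described separately.

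For 6 members the lowest RasV12scrib- array fell within the range of the other tumours. CG5681 was 2.44, 0.20, 0.93 and 1.5 on replicates 1 to 4 (1.27 ± 0.94), so that replicate 2 lay below RasV12baz- replicate 1 (0.57). FBgn0036607 read 0.17, 0.85, 1.73 and 1.69 (1.11 ± 0.75) and FBgn0024293 0.14, 1.09, 1.53 and 1.62 (1.09 ± 0.68), both with a replicate 1 close to 0. FBgn0030610 had 0.65, 0.40, 1.43 and 1.60 (1.02 ± 0.58) and reached 0.80 on RasV12baz- replicate 4. FBgn0032590 varied least of all members in RasV12scrib-, with 0.95, 1.18, 0.86 and 1.13 (1.03 ± 0.15), and yet stood at 1.20 on the averaged RafGOFscrib- replicates 1 and 2. FBgn0026751 had 0.83, 0.79, 1.23 and 1.27 (1.03 ± 0.25). It was also raised on RasV12cdc42- replicates 1 and 2, at 0.76 and 1.0, against -0.24 and -0.45 on replicates 3 and 4. Those are the Cy5 and the Cy3 arrays of that genotype, so dye cannot be told apart from replicate in this split. In RasV12scrib- the feature averaged 1.03 on the Cy5 arrays and 1.03 on the Cy3 arrays. The fitted dye effect of FBgn0026751 was 0.62 (SE 0.29, limma adjusted p = 0.377). That effect rests on RasV12scrib- and RasV12cdc42-, since all arrays of the other genotypes had tumour RNA in Cy3. In all, 9 of the 15 members had no overlap between RasV12scrib- and the other arrays, against 0.67% of all features; the rule used these values, so nothing is read from that count.

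**Figure D2:**
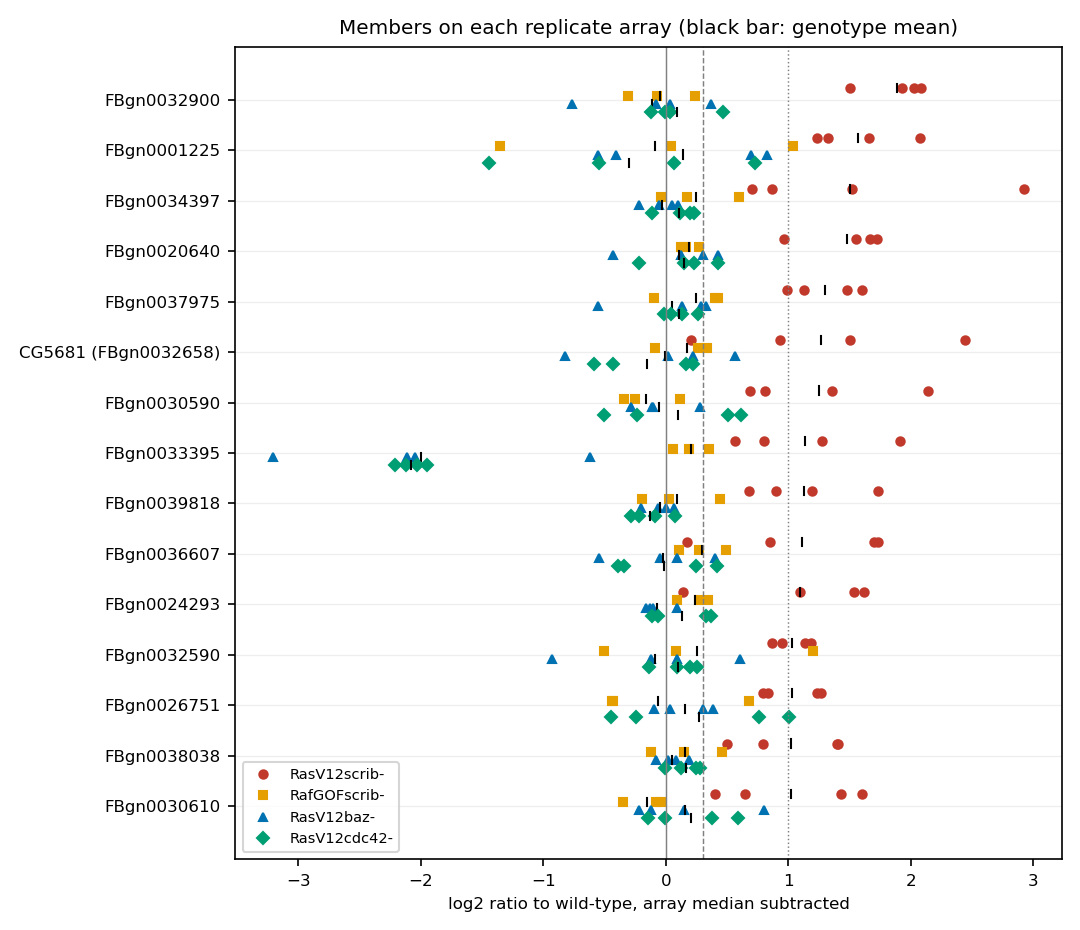
Log2 ratio to wild-type of each member on each of the 15 replicates, with the genotype mean as a black bar and lines at 0, 0.3 (dashed) and 1 (dotted). The RasV12scrib- arrays of FBgn0032900 lie between 1.5 and 2.08, clear of all others, whereas FBgn0033395 is the only member with RasV12baz- and RasV12cdc42- values near -2.0.

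FBgn0033395 was not merely raised in RasV12scrib-. It read 0.56, 1.27, 0.80 and 1.91 there (1.14 ± 0.59), 0.19, 0.35 and 0.06 in RafGOFscrib- (0.20 ± 0.15, n = 3), -2.05, -2.11, -0.62 and -3.21 in RasV12baz- (-2.0 ± 1.06) and -2.21, -2.12, -2.03 and -1.95 in RasV12cdc42- (-2.08 ± 0.11). The levels thus ran from RasV12scrib- through RafGOFscrib- to RasV12baz- and RasV12cdc42-. No array of either scrib genotype reached below 0 and no array of the other 2 genotypes reached above it. The place of RasV12scrib- in this order was fixed by the rule, which required its arrays above 0 and its mean above the others. The share of all features with such a split is not given here. The means of the remaining 14 members in these 3 genotypes lay between -0.30 and 0.29.

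The rule used no difference among RafGOFscrib-, RasV12baz- and RasV12cdc42-, and these differences were tested. It did cap each mean under 0.3, which left out features high in any of these genotypes. The tests are therefore not free of the choice. FBgn0033395 was higher in RafGOFscrib- than in RasV12baz- by 2.20 ± 0.42 on the log2 scale (SE, 4.58-fold, limma adjusted p = 0.0205), in 3 of 3 against 4 of 4 replicates without overlap. It was the 1 member of 15 called in this comparison, in which 0.84% of all features were called. Its difference from RasV12cdc42- was 2.01 ± 0.46 (limma adjusted p = 0.0684), where 0 members and 0.715% of features passed the threshold of 0.05. RasV12baz- and RasV12cdc42- differed by -0.19 ± 0.43 for this feature (limma adjusted p = 0.963), and 0 members and 0.0357% of features were called. The call against RasV12baz- was lost without any 1 of RafGOFscrib- replicates 1, 3 and 4 and RasV12baz- replicates 1 and 2 (adjusted p from 0.0521 to 0.109), and with replicates 1-2 and 3-4 as random blocks (adjusted p = 0.385), while the difference stayed between 1.79 and 2.66. The comparison with RasV12cdc42- passed the threshold in 6 of 21 other settings, among them the values as deposited (adjusted p = 0.0368) and the fit without RasV12baz- replicate 3 (adjusted p = 0.00584) or 4 (adjusted p = 0.0135).

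None of the remaining 14 members passed the threshold in these comparisons in the fit with equal weights. With array weights 4 of them were called between RasV12baz- and RasV12cdc42-, FBgn0001225 and FBgn0026751 higher in RasV12baz- by 1.39 and 0.56, and FBgn0024293 and FBgn0030610 lower (-0.49 and -0.54, limma adjusted p from 0.00975 to 0.0251), in a fit that called 3148 of all features. With equal weights the fitted differences ran from -0.31 to 0.35 for RafGOFscrib- minus RasV12baz- (lowest limma adjusted p = 0.8), from -0.49 to 0.70 for RafGOFscrib- minus RasV12cdc42- (0.878) and from -0.44 to 0.93 for RasV12baz- minus RasV12cdc42- (0.735). The highest of these, 0.93 ± 0.50, belonged to FBgn0001225, for which single arrays ran from -1.44 to 1.04 in these genotypes. Fits to this number of arrays do not show that these members were at 1 level in the 3 genotypes. The cap on each mean also narrowed the differences that members could have, so no trait of theirs is read from the missing calls.

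For the differences that the rule did use, the calls over the members are given as counts beside the share of all features, and nothing is read from them, since the choice largely fixed them. In the same fit 13 of 15 members were called higher in RasV12scrib- than wild-type, where 8.03% of all features were called higher. Of the members 2 were called higher in RasV12scrib- than in RafGOFscrib-, where 0.634% of features were. The number was 7 against RasV12baz- (0.947% of features) and 10 against RasV12cdc42- (1.44%). Over the other settings of the fit the number of members called ran from 8 to 15 against wild-type, 0 to 5 against RafGOFscrib-, 2 to 10 against RasV12baz- and 3 to 12 against RasV12cdc42-. Over all features 899 were higher and 1103 lower in RasV12scrib- than wild-type, but 1026 and 677 with the values as deposited. Against RafGOFscrib- the split was 71 higher and 70 lower (41 and 91 as deposited, 39 and 35 with the replicate number as a block), and against RasV12baz- 106 and 258 (62 and 276 as deposited). These comparisons share the RasV12scrib- arrays and are not independent of one another.

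The labelling dye did not enter the rule. Tumour RNA was labelled with Cy5 on RasV12scrib- replicates 1 and 3 and RasV12cdc42- replicates 1 and 2, and with Cy3 on all other arrays. No dye effect passed the threshold for a member or for any other feature (limma, 0% of features called, lowest adjusted p 0.284), although 1487 features and 2 members had an unadjusted p under 0.05. With array weights 6 members and 4335 features passed the threshold. The 2 members were FBgn0001225 (0.99 ± 0.45 higher with Cy5, unadjusted p = 0.0423 in the limma fit) and FBgn0030590 (0.63 ± 0.27, unadjusted p = 0.0365 in the limma fit). In RasV12scrib-, FBgn0001225 averaged 1.87 on the arrays with Cy5 and 1.28 on those with Cy3, and FBgn0033395 averaged 0.68 and 1.59. The part of dye in these values was not tested further.

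Which pair of resembling RasV12scrib- arrays was the higher differed between members, and it differed over all features too. No trait of the members is read from the counts that follow. Replicates 3 and 4 were both above replicates 1 and 2 for 7 members, against 35.2% of all features, and replicates 1 and 2 were both above replicates 3 and 4 for 3 members, against 25.9% of all features. The first kind included FBgn0034397 (mean 0.79 on replicates 1 and 2, 2.22 on replicates 3 and 4), FBgn0036607 (0.51 and 1.71) and FBgn0030610 (0.53 and 1.51). The second kind were FBgn0032900 (2.05 and 1.72), FBgn0030590 (1.75 and 0.75) and FBgn0039818 (1.46 and 0.79). The median of the 15 members was 0.95 and 0.99 on replicates 1 and 2 and 1.39 and 1.5 on replicates 3 and 4. On the 11 other replicates it lay between -0.14 and 0.20.

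The median SD of the members in RasV12scrib- was 0.45, against 0.37 over all features. In the other genotypes it was 0.27 against 0.26 in RafGOFscrib-, 0.39 against 0.28 in RasV12baz- and 0.26 against 0.29 in RasV12cdc42-. The same values chose the members, and all features are not matched to them in level, so nothing is read from these differences. The SD of single members in RasV12scrib- ran from 0.15 for FBgn0032590 to 1.01 for FBgn0034397, so that a mean near 1 rested on close values in some members and on 1 or 2 high arrays in others.

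Values that the choice had not used could be seen by applying the rule without some RasV12scrib- arrays and reading the arrays left out. Chosen without replicate 1, 2, 3 or 4, the features numbered 18, 31, 15 and 13, and their median on the left-out array was 0.68, 0.60, 0.86 and 0.81. On that array 18 of 18, 25 of 31, 12 of 15 and 11 of 13 were above 0, against 50.0% of all features. A value of 1 was reached by 4, 6, 5 and 6 of them, and by 5.06%, 4.48%, 8.18% and 7.84% of all features. In each case the resembling partner of the left-out array stayed in the choice. Chosen on replicates 3 and 4 alone, 113 features had a median of 1.18 there and of -0.09 on the left-out replicates 1 and 2, where 50 were above 0 and 5 reached 1. Chosen on replicates 1 and 2 alone, 45 features had a median of 1.12 there and of -0.02 on replicates 3 and 4, where 21 were above 0 and 5 reached 1. Across the pairs, then, the level of 1 on one pair was mostly not met on the other. It was reached by 4.42% and 11.1% of the chosen features, against 3.84% and 7.51% of all features. The sign carried over no more often than for features in general, with 44.2% and 46.7% above 0 against 50.9% and 49.3%.

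**Figure D3:**
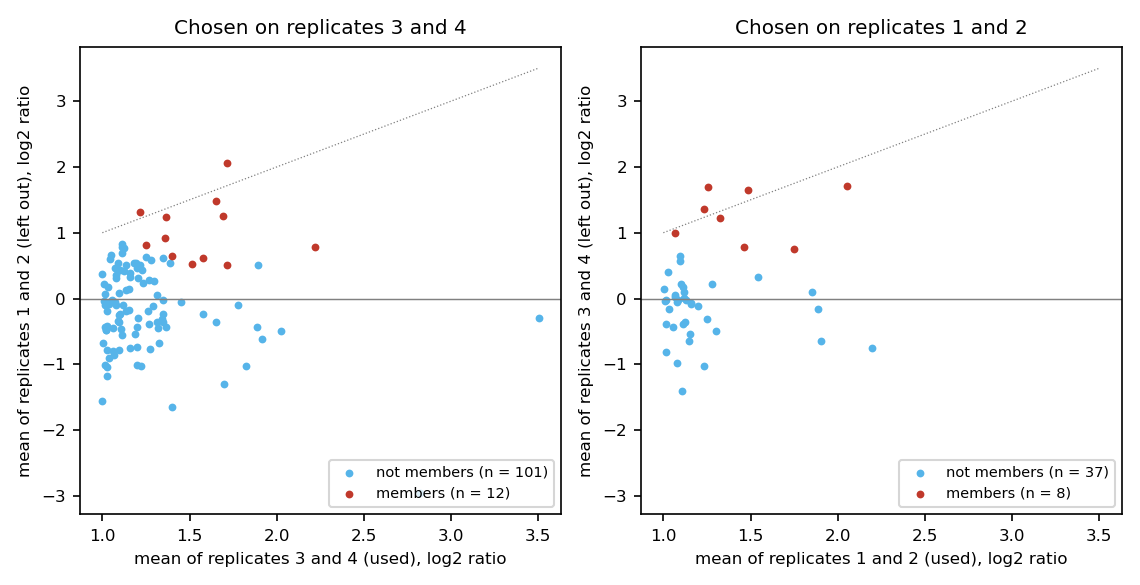
Mean log2 ratio on the pair of RasV12scrib- replicates used to choose features (x axis) against the mean on the pair left out (y axis), with the line of equal values dotted. Most of the 113 (left) and 45 (right) features lie around 0 on the left-out pair, and the red members lie higher there because the full rule also required it.

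Membership depended on the limits as well. The 5 members nearest to the lower limit had RasV12scrib- means from 1.02 to 1.09 (FBgn0030610, FBgn0038038, FBgn0026751, FBgn0032590 and FBgn0024293), and the 5 features just below it had means from 0.94 to 0.99, with FBgn0039620 at 0.99 the closest. The 5 members nearest to the upper limit had a highest other mean from 0.24 to 0.29, with FBgn0036607 closest at 0.29 in RafGOFscrib-. The 5 features just above it ran from 0.31 to 0.33. Among them was the trehalose-splitting enzyme gene Treh, at 1.19 in RasV12scrib- and 0.33 in RasV12baz-, which was its only mean above the limit.

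FBgn0032900 was the 1 member that stayed under all 27 other settings of the rule, 15 of which left out 1 replicate each. FBgn0020640 was lost in 3 settings and in none that left out a replicate. FBgn0037975 and FBgn0030590 were lost in 4, and FBgn0001225, CG5681 and FBgn0039818 in 5. The other 8 were lost in 6 (FBgn0034397 and FBgn0033395) or 10 settings. With the values as deposited 3 features met the rule, 2 of them members (FBgn0032900 and FBgn0030590). The deposited values differ from those used by the rule only by the array medians. These were -0.12 to 0.31 for the RasV12scrib- arrays and -0.05 to 0.48 for the others. The members lost in this setting therefore met the rule only after the medians had been subtracted.

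**Figure D4:**
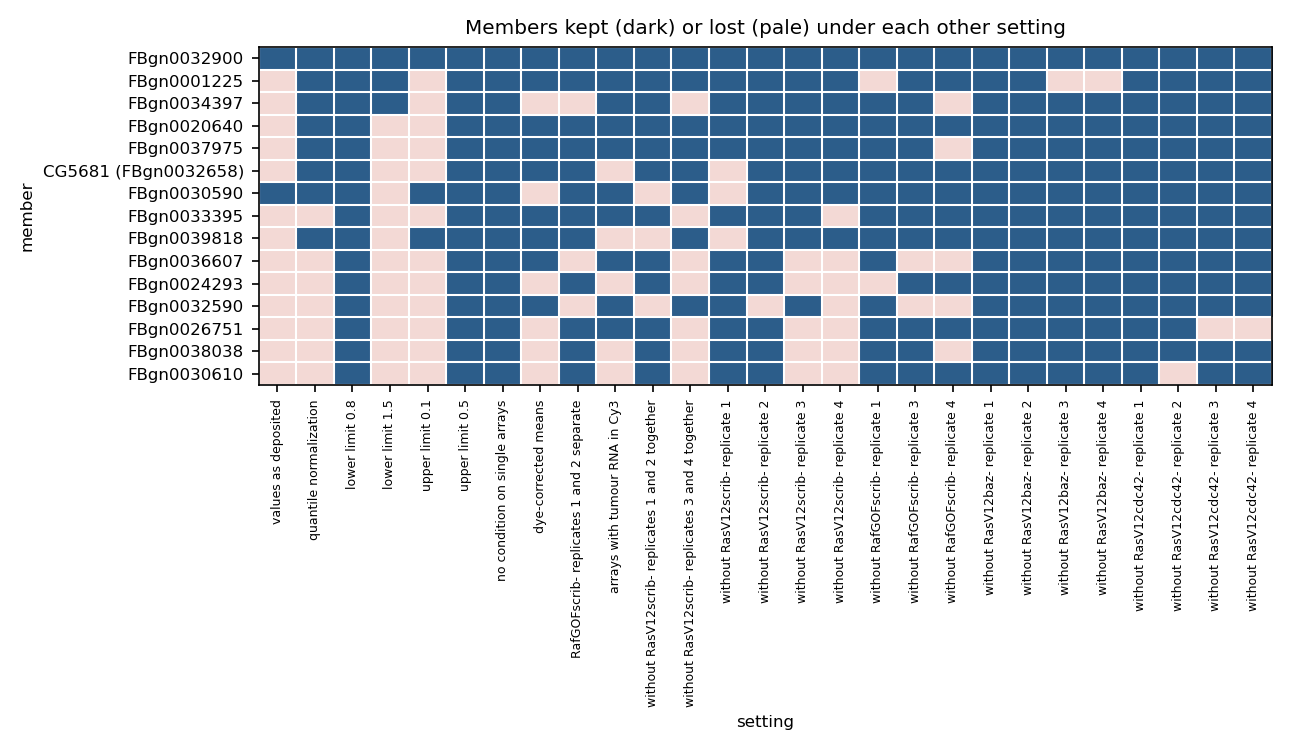
Each member (y axis) under each of 27 other settings of the rule (x axis), dark where it was kept and pale where it was lost. FBgn0032900 is dark throughout, and the 6 members of the lowest RasV12scrib- means form the palest rows.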

How the data were processed

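The authors deposited 1 table of log2 ratios per feature and array. Scanning, background correction, normalization and averaging of spots are not given in the sources used here, and signal levels were not used. Among 409 values other than 0 seen at least 3 times on an array, 36.7% fell within 1e-05 of the log2 of one whole number over another (each 9 or less) and 0% of its natural or decimal logarithm, which is the basis for base 2. Amplification used random hexamers after TRIzol extraction, per the labels' protocols.

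Each array's median was subtracted, RafGOFscrib- replicates 1 and 2 were averaged, and the rule was applied to genotype means. A linear model (limma 3.58.1, R 4.3.3) with 4 genotype means and a dye term was fitted to 15 replicates and all 11196 features, with empirical Bayes moderation and Benjamini-Hochberg adjustment over all features, two-sided at 0.05, and was tested on simulated data. Wild-type RNA enters as reference alone, so its own spread is left out. Figures used Python 3.11.15 with matplotlib 3.10.9. Identifiers were matched to symbols and synonyms of the RefSeq table (71 of 11196 with 1 symbol). Members and lists were chosen with earlier results of these data known. The naming rule covered members with a symbol, those near the limits and those passing a test; since 1 member has a symbol, the others are given by identifier, outside that rule, and FBgn0016650 was picked after its values were seen. Deviations from the genotype means were correlated between arrays with the same replicate number. The correlation was above 0.1 in all 3 pairs of RasV12scrib- with RafGOFscrib- (0.13 to 0.28) and all 4 with RasV12cdc42- (0.21 to 0.28). It was above 0.1 in 1 of 4 pairs with RasV12baz-. No correlation of arrays with unlike numbers is given here, and RasV12scrib- arrays resembled each other within replicates 1-2 and 3-4. These correlations therefore do not show that the numbers pair arrays across genotypes, and the labels do not say so. The main fit used no pairing, and the fit with the replicate number as a block was an alternative. Others were other centring, limits, dye treatment, blocks, weights and left-out replicates. No sequence is printed, since none was used here.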

Additional observations from a re-analysis of the deposited data

Results flagged for a closer look

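FBgn0033395 differed between 2 tumour genotypes that both sit under the upper limit of the rule: its ratio to wild-type was 2.20 higher on the log2 scale in RafGOFscrib- than in RasV12baz- (limma adjusted p = 0.0205, 3 against 4 replicates without overlap). The call was lost in 6 of 21 other settings and its direction in 0. It was lost with replicates 1-2 and 3-4 as random blocks (limma adjusted p = 0.385), where the correlation within blocks was 0.50. Among 45 groups of 4 arrays (15 members in 3 genotypes), 0 held an array beyond Dixon's 95% critical value for 4 values. Groups of 3 were not examined.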

How the results depend on the processing

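The number of members (15) was 10 to 31 without 1 replicate, the highest without RasV12scrib- replicate 2, and 113 or 45 without RasV12scrib- replicates 1 and 2 or 3 and 4 together. It was 3 with the values as deposited (2 shared), 9 with quantile normalization (8 shared), 34 and 3 with a lower limit of 0.8 and 1.5, and 3 and 47 with an upper limit of 0.1 and 0.5. Dye-corrected means gave 13 (9 shared), separate RafGOFscrib- replicates 1 and 2 gave 12, Cy3 arrays 17 (10 shared) and no condition on single arrays 19.

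No member's RasV12scrib- mean changed sign in 150 checks under other settings. The rule required all 4 of these arrays above 0, so leaving 1 out could not turn the sign, and nothing is read from this. Of the 150 means, 8 moved by over 1 SD: FBgn0001225 (to 0.66 with array weights) and FBgn0026751 (to 0.44) in 7 of them, and FBgn0032590 with quantile normalization in 1. Array weights were estimated gene by gene, a choice made after seeing the data, because the default estimate did not converge. The fitted difference of FBgn0033395 between RasV12baz- and RasV12cdc42- (-0.19, not called) turned sign with quantile normalization (0.46), without the dye term (0.082) and with array weights (0.24), and ran from -0.65 to 0.21 without 1 replicate (RasV12baz- replicates 3 and 4). Random blocks for replicates 1-2 and 3-4 had a correlation of 0.50.

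Counts over all features moved as follows. Features higher in RasV12scrib- than wild-type (899) were 465 with random blocks. Against RafGOFscrib- (71) they were 41 as deposited, 39 with the replicate block, 123 with array weights, 12 with random blocks and 18 to 114 without 1 replicate (RafGOFscrib- 3, RasV12scrib- 2). Against RasV12baz- (106) they were 62 as deposited, 54 with quantile normalization, 186 without the dye term, 449 with array weights, 6 with random blocks and 23 to 360 without 1 replicate (RasV12baz- 2, RasV12baz- 4). Against RasV12cdc42- (161) they were 97, 102 and 25 as deposited, with quantile normalization and with random blocks, and 72 to 241 without 1 replicate (RasV12cdc42- 3, RasV12scrib- 2). Features differing between RafGOFscrib- and RasV12baz- (94) were 52 as deposited, 350 with quantile normalization, 679 with array weights, 22 with random blocks and 34 to 125 without 1 replicate (lowest RafGOFscrib- 1). Between RafGOFscrib- and RasV12cdc42- (80, 30 higher and 50 lower; 32 and 35 as deposited) they were 221, 1151 and 18 with quantile normalization, array weights and random blocks, and 21 to 107 without 1 replicate (lowest RasV12cdc42- 3). Between RasV12baz- and RasV12cdc42- (4, 2 each way) they were 46 with quantile normalization (32 and 14), 23 without the dye term, 2 with the replicate block, 3148 with array weights, 0 with random blocks and 0 to 73 without 1 replicate (highest RasV12baz- 4). Features with a dye effect (0) were 4335 with array weights, and 55 without RasV12scrib- replicate 3 at the highest (0 to 55). The causes were not tested. Array weights also called 4 members between RasV12baz- and RasV12cdc42- and 6 for dye. The replicate block left the call of FBgn0033395 between RafGOFscrib- and RasV12baz- (adjusted p = 0.0392 in the limma fit) and its missed threshold against RasV12cdc42-. Among RafGOFscrib-, RasV12baz- and RasV12cdc42-, the correlation of same-numbered arrays was not above 0.1 in every pair of replicates. Precision was limited by 3 or 4 arrays a genotype, and signal over background was not used here.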
